A study of Mus musculus with 22 samples.

Results

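The genes described here are those of cholesterol synthesis, from acetyl-CoA to cholesterol, with the sterol sensors that control the pathway and a few proteins that carry or take up sterol. Of 27 listed genes, 24 had a probe on the array, matched by RefSeq accession or gene name, and all 24 were bright enough to be tested, among 26191 tested genes in all. No probe was matched to Idi1, Srebf2 or Npc1l1, whose expression was not analysed here. The 24 genes had 40 probes, none of them saturated in any of 44 channels, and the brightest probe of each gene was used.

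Liver RNA came from ICR mice aged 8 weeks, in pools of 2 to 5 animals, and each of 11 comparisons was made on 2 arrays with the dyes reversed. The 10 groups were males and females after sham surgery and vehicle injection (M-Sham, F-Sham), both sexes without a pituitary after hypophysectomy (M-Hypox, F-Hypox), and such hypophysectomised mice dosed with growth hormone (GH). Livers of the dosed mice were taken 30 min after 1 injection (M-GH30, F-GH30), 90 min after 1 injection (M-GH90, F-GH90), or 30 min after the last of 2 injections spaced by 4 h (M-2GH, F-2GH). Sham mice kept the pituitary. All other groups lacked every hormone it makes, not GH alone, apart from the GH injected into the dosed mice. Values below are log2 ratios with the first named group on top, averaged over 2 arrays and given ± the SE of a limma fit to all 22 arrays. A gene was called higher or lower at a Benjamini-Hochberg adjusted p under 0.05 over all tested genes with both arrays going the same way.

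Between 57.1% and 77.7% of spots in a channel were well above background. The hepatocyte markers Alb, Ttr, Apoa1 and Fgb were well above background in 44 of 44 channels. The Y-linked genes followed the sexes in the labels, with Eif2s3y at 6.68 in M-Sham over F-Sham and -0.01 in F-2GH over F-Hypox. The GH targets Igf1 and Socs2 followed the treatments: in M-Hypox over M-Sham they fell by 2.46 and 2.55, and in M-2GH over M-Hypox they rose by 1.22 and 3.22. Skeletal muscle markers differed between pools, and their values are given beside the results they move with. In RNA from whole liver, fewer cells of a type and less RNA per cell cannot be told apart.

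Cholesterol is built in the endoplasmic reticulum from acetyl-CoA through mevalonate, isoprenoid diphosphates, squalene and lanosterol. The liver is a main site of this synthesis. The transcription factor SREBP-2 turns on most genes of the pathway. Its precursor is carried to the Golgi by Scap and held back by Insig1 and Insig2 when sterols are plentiful. SREBP-2 binds sterol regulatory elements in its target promoters, usually with NF-Y or Sp1 beside it.

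The promoter windows of these genes are shown because many of them moved together. RefSeq windows (build GRCm38.p6) of 300 bases around the transcription start were matched for 22 of the 27 listed genes, 28 windows in all. These 22 include Idi1, Srebf2 and Npc1l1, which had no probe. The NF-Y box CCAAT, searched on both strands, occurred in 20 of 22 genes (90.9%) and in 41.1% of all 27025 genes with a window. Per window the shares were 71.4% of 28 and 37.4% of 32851. The Sp1 box GGGCGG occurred in 86.4% of the listed genes against 38.2% of all genes. Among the 19 genes with both a window and a probe, 17 held the NF-Y box and 17 the Sp1 box (89.5% each). The core CACCCCAC of the sterol regulatory element occurred in Acat2 and Hmgcs1, 9.09% of the 22 genes against 3.30% of all genes. A longer form of the element, with AT before this core, occurred in 0 of the 22 genes and in 0.0999% of all genes, and each match to it is also a match to the core. A match is a description of letters, and its absence says only that these letters are not in this window. In the sequences below, capitals mark CCAAT or its reverse complement ATTGG and the core CACCCCAC on either strand. The first 5 genes fell after hypophysectomy in at least 1 sex, and Acat2, which did not pass the test in either sex, is shown beside them.
Hmgcs1 (chr13:119690101-119690400, plus strand): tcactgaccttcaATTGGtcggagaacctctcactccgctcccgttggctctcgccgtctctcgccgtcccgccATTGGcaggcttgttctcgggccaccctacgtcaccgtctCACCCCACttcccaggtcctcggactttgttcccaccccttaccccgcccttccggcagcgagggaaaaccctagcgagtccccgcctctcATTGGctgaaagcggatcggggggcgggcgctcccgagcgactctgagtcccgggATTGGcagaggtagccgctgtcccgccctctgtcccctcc
Mvd (chr8:122443373-122443672, minus strand): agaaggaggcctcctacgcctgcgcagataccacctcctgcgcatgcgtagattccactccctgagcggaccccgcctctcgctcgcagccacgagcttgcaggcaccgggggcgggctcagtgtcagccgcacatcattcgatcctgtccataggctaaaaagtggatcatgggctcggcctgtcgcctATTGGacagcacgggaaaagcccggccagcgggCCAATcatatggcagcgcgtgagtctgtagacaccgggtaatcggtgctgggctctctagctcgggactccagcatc
Cyp51 (chr5:4104648-4104947, minus strand): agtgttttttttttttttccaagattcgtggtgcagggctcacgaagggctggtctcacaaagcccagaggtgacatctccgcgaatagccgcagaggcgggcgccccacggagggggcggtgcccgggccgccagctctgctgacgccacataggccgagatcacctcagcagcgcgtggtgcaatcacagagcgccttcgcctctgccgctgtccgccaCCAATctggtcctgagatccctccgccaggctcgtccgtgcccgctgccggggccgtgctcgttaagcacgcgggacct
Nsdhl (chrX:72918271-72918570, plus strand): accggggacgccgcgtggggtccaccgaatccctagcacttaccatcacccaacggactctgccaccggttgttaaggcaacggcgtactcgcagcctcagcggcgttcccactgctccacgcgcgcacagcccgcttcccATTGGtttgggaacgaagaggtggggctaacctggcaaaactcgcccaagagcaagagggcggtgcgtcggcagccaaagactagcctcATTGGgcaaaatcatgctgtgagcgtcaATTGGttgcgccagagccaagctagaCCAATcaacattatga
Insig2 (chr1:121332540-121332839, minus strand): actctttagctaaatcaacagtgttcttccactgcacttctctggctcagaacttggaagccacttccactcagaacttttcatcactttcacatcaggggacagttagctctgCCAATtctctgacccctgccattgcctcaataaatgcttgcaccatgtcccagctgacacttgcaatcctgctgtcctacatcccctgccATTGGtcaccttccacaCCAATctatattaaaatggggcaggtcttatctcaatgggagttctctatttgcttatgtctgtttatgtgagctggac
Acat2 (chr17:12960676-12960975, minus strand): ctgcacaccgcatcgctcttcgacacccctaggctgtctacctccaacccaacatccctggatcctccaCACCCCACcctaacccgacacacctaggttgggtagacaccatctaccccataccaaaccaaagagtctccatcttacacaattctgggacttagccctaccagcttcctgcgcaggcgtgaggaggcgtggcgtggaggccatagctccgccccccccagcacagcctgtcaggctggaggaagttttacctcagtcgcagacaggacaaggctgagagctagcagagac
The Hmgcs1 window held 4 NF-Y boxes and 1 element core, the Nsdhl window held 4 NF-Y boxes, and the Insig2 window shown held 3, while the other 2 of the 3 Insig2 windows held none. The Mvd window held 2 and the Cyp51 window held 1. The Acat2 window held the element core and no NF-Y box. Scap, which fell in both sexes, also held no NF-Y box in its 2 windows. The Ggps1 window held 3 and the Lbr window held 2, and neither gene was called lower in either sex.

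Removal of the pituitary lowered much of the pathway in both sexes. In females 17 of the 24 genes were lower in F-Hypox than in F-Sham and 2 were higher. In males 11 were lower in M-Hypox than in M-Sham and 2 were higher. Over all tested genes, 31.1% were called in the female comparison (14.6% higher, 16.5% lower) and 37.4% in the male one (18.8% higher, 18.6% lower). The median of the 24 genes was -0.76 in females and -0.44 in males, with medians over all genes of -0.003 and 0.006. All 11 genes lower in males were among the 17 lower in females, which is 64.7% of the female list and 100% of the male list. Over all genes, those lower in both sexes made up 60.6% of the female list and 53.8% of the male list. The 2 comparisons have no group in common.

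**Figure D1:**
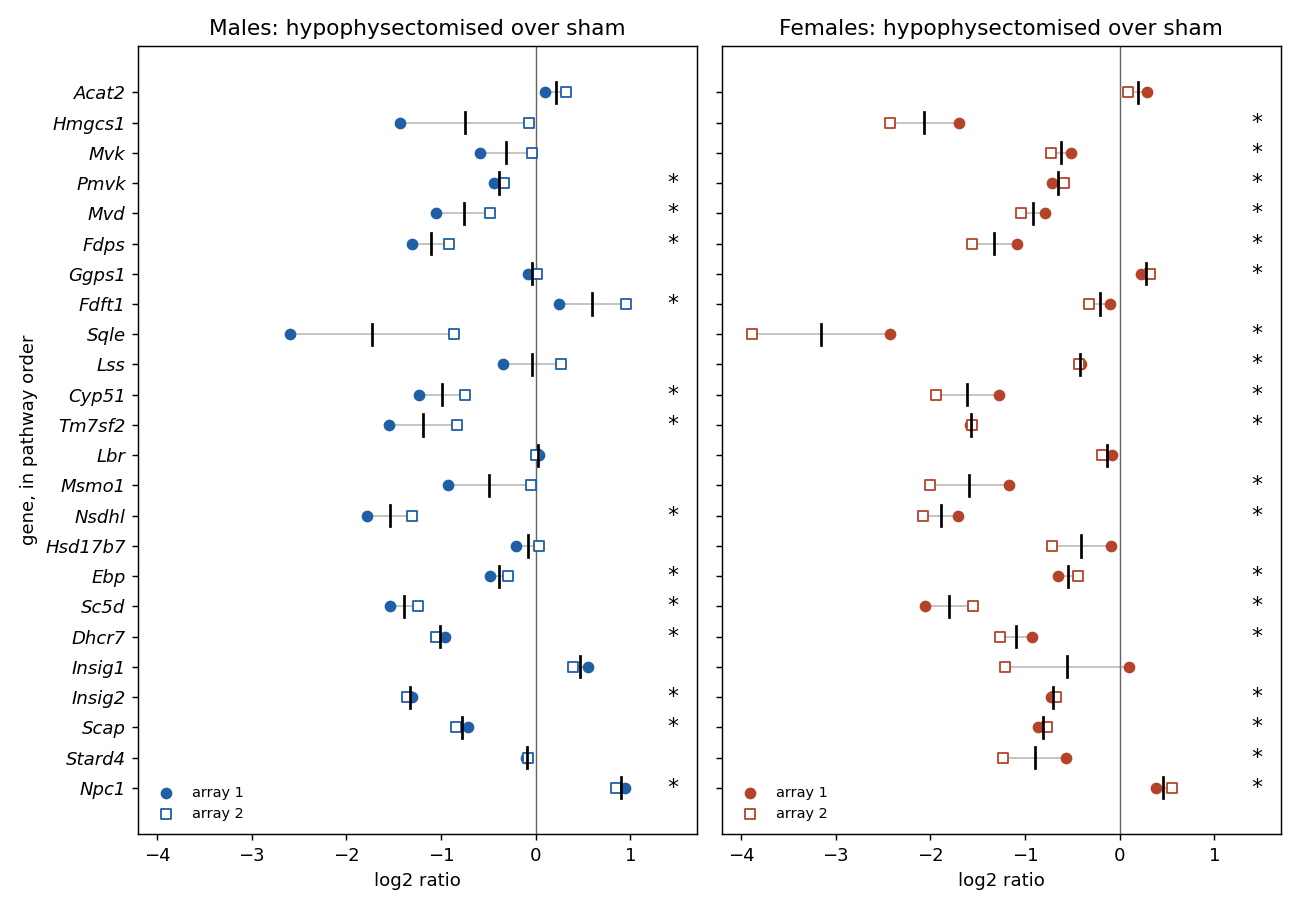
Log2 ratio of hypophysectomised over sham liver for the 24 genes in pathway order, males on the left and females on the right. Filled circles are array 1, open squares array 2, black bars the mean of both, and an asterisk marks a gene called at adjusted p under 0.05 (limma). Most points lie left of 0; Sqle reached -3.89 on array 2 of the females, and Npc1 lies right of 0 on all 4 arrays.

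Of the 5 measured enzymes that make mevalonate and convert it to isopentenyl diphosphate, 4 were lower in females and 2 in males. Hmgcs1, the cytosolic synthase that makes HMG-CoA, read -1.70 and -2.43 on the female arrays (-2.07 ± 0.46, adjusted p = 0.0045). On the male arrays it read -1.43 and -0.07, so that only array 1 was clearly low (-0.75 ± 0.46, adjusted p = 0.23). Mvd, which decarboxylates mevalonate diphosphate, read -0.79 and -1.04 in females (-0.92 ± 0.20, adjusted p = 0.0037). In males it read -1.05 and -0.48 (-0.76 ± 0.20, adjusted p = 0.0088). The kinase Pmvk was below 0 on all 4 arrays, reading -0.71 and -0.59 in females and -0.44 and -0.34 in males. The mevalonate kinase Mvk fell in females, at -0.51 and -0.73 (adjusted p = 0.017), and had -0.31 in males (adjusted p = 0.19). Acat2, the cytosolic thiolase at the head of the pathway, had 0.19 in females and 0.21 in males and passed the test in neither sex.

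At the next steps Fdps, which makes farnesyl diphosphate, read -1.09 and -1.56 in females (-1.33 ± 0.27) and -1.31 and -0.92 in males (-1.11 ± 0.27). Its adjusted p was 0.0026 in females and 0.0059 in males. Ggps1 extends farnesyl diphosphate toward protein prenylation and away from sterols. It was higher in females (0.23 and 0.32 on the arrays, adjusted p = 0.011) and near 0 in males (-0.04 ± 0.07).

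The squalene enzymes differed among themselves. Sqle, the squalene epoxidase, read -2.43 and -3.89 in females, an 8.94-fold fall and the largest of the 24 genes there (-3.16 ± 0.68, adjusted p = 0.0037). In males it read -2.60 and -0.86; both arrays were low, but far apart, and the gene missed the threshold (-1.73 ± 0.68, adjusted p = 0.064). Lss, which closes squalene epoxide into lanosterol, read -0.41 and -0.43 in females (-0.42, adjusted p = 0.039), while the male arrays read -0.35 and 0.27 on opposite sides of 0. Fdft1, squalene synthase, was higher in males, at 0.25 and 0.96 (0.60 ± 0.16, adjusted p = 0.011), and had -0.21 in females. A second, dimmer Fdft1 probe gave 0.21 in males and 0.04 in females.

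Of the 9 measured enzymes from lanosterol to cholesterol, 7 were lower in females and 6 in males. The dehydrogenase Nsdhl, on the X chromosome, read -1.71 and -2.08 in females and -1.78 and -1.31 in males. Its means were -1.89 ± 0.26 (adjusted p = 1.9e-04) and -1.54 ± 0.26 (adjusted p = 5.3e-04), and its other 2 probes read between -1.70 and -1.44. Sc5d, the lathosterol desaturase, read -2.06 and -1.55 in females and -1.54 and -1.24 in males (-1.80 and -1.39, each ± 0.21). Tm7sf2, a sterol reductase, read -1.58 and -1.56 in females, nearly the same on both arrays, and -1.55 and -0.83 in males (-1.57 and -1.19). These 3 genes were low on each of the 4 arrays, by at least 0.83, and Fdps and Dhcr7 read -0.92 or lower on all 4.

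Cyp51, the lanosterol demethylase, read -1.28 and -1.94 in females and -1.23 and -0.75 in males (-1.61 and -0.99). Dhcr7, which makes cholesterol in the last step of its branch, read -0.93 and -1.27 in females and -0.96 and -1.05 in males, with close arrays in the males. Ebp, the sterol isomerase, fell less, reading -0.65 and -0.44 in females and -0.48 and -0.29 in males. Msmo1, the methylsterol oxidase, read -1.17 and -2.01 in females (-1.59, adjusted p = 0.0069), but -0.93 and -0.05 in males (-0.49, adjusted p = 0.35). Lbr, a nuclear envelope protein that also reduces sterols, had -0.13 in females and 0.02 in males. Hsd17b7, a sterol ketoreductase, had -0.41 in females (adjusted p = 0.066) and -0.08 in males, and its second probe had -1.42 and -0.28.

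Among the sterol sensors, Insig2 and Scap fell in both sexes and their arrays lay close together. Insig2, the SREBP anchor with a liver-specific transcript, read -1.31 and -1.36 in males (-1.33 ± 0.12, adjusted p = 3.6e-06) and -0.73 and -0.67 in females (-0.70 ± 0.12, adjusted p = 8.4e-04). Scap, the SREBP escort, read -0.72 and -0.84 in males (-0.78 ± 0.10) and -0.86 and -0.77 in females (-0.81 ± 0.10). Insig1, itself an SREBP target, behaved otherwise: it read 0.55 and 0.39 in males and 0.10 and -1.21 in females, and passed the test in neither sex (adjusted p = 0.38 and 0.32). Npc1, which exports cholesterol from lysosomes, was higher on all 4 arrays. It read 0.94 and 0.85 in males (0.90 ± 0.09, adjusted p = 1.2e-05) and 0.38 and 0.55 in females (0.46 ± 0.09, adjusted p = 0.0025). Stard4, a cytosolic sterol carrier, read -0.57 and -1.23 in females (-0.90, adjusted p = 0.013) and -0.10 and -0.08 in males.

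Without array 1 the count of called genes was 7 in males and 15 in females, and without array 2 it was 13 in males and 9 in females. With median centring in place of loess, 1 gene was higher and 4 lower in males, and 0 were higher and 10 lower in females. Skeletal muscle markers had medians of -2.65 and -2.92 on the male arrays, where 6 of 8 were called lower. On each female array their median was 0.04, and the part of these markers was not tested. Lymphocyte markers were higher in both sexes (5 of 6 called in males with median 0.64, 4 of 6 in females with median 0.32), and their part in the result was not tested.

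The sexes were then compared. In sham mice none of the 24 genes was called (8.77% of all genes were). Only 1, a gene other than Fdps, had an unadjusted p under 0.05 (limma, adjusted p = 0.1). The ratios of M-Sham over F-Sham ran from -0.45 for Hmgcs1 to 0.53 for Fdps, which was higher in males on both arrays (0.56 and 0.50) but missed the threshold (adjusted p = 0.30). Muscle markers had medians of 2.45 and 2.88 on these arrays, and their part was not tested.

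In hypophysectomised mice Insig2 was lower in males, at -0.62 and -0.58 (-0.60 ± 0.12, adjusted p = 0.031), and no other member was called, where 1.63% of all genes were (0.764% lower). The effect of hypophysectomy on Insig2 differed between the sexes by -0.63 ± 0.17 as males minus females (adjusted p = 0.045). This contrast shares the M-Hypox and F-Hypox groups with the direct comparison and is not independent of it. In it 5 members had an unadjusted p under 0.05 (limma). Insig2 was the only member called in that difference (4.17% of members, against 6.74% of all genes, 3.52% lower). The call was lost in 5 of 12 alternative settings for M-Hypox over F-Hypox, and in 6 of 12 for the difference. Of the other 23 genes, 21 had a mean above 0 in M-Hypox over F-Hypox, and the median of the 24 was 0.34. Of the 24 genes, 16 were above 0 and 1 was below 0 on both arrays, and 11 had an unadjusted p under 0.05 (limma). The size of the median differed between the arrays. On array 1 it was 0.12, with 8 of 24 genes below 0, and on array 2 it was 0.52, with 1 of 24 below 0.

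The gap between arrays was widest for Sqle, Insig1, Hmgcs1 and Msmo1. Sqle read -0.17 on array 1 and 2.68 on array 2 of M-Hypox over F-Hypox. Hmgcs1 read -0.22 and 1.65, Insig1 read 0.45 and 2.33, and Msmo1 read 0.25 and 1.57. On array 1 these 4 genes were thus near equal in the sexes or modestly higher in males, and on array 2 they were far higher in males. Per the labels, the F-Hypox pool held 3 mice on array 1 and 2 mice on array 2.

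The same ratio can be computed through the sham groups, from the hypophysectomy arrays of each sex and the M-Sham over F-Sham array of the same number. For the arrays numbered 2 this route gave Sqle 2.18, Hmgcs1 1.75, Msmo1 1.37 and Insig1 1.38. For those numbered 1 it gave Sqle -0.09, Hmgcs1 -0.03, Msmo1 0.32 and Insig1 0.44. The median absolute gap between both routes over the 24 genes was 0.07 for number 1 and 0.11 for number 2, and 0.40 when the numbers were crossed. Over all genes the gaps were 0.10, 0.11 and 0.18. Per the labels the F-Hypox pool also held 2 mice on the array numbered 2 of F-Hypox over F-Sham, where Sqle read -3.89 and Hmgcs1 -2.43.

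**Figure D2:**
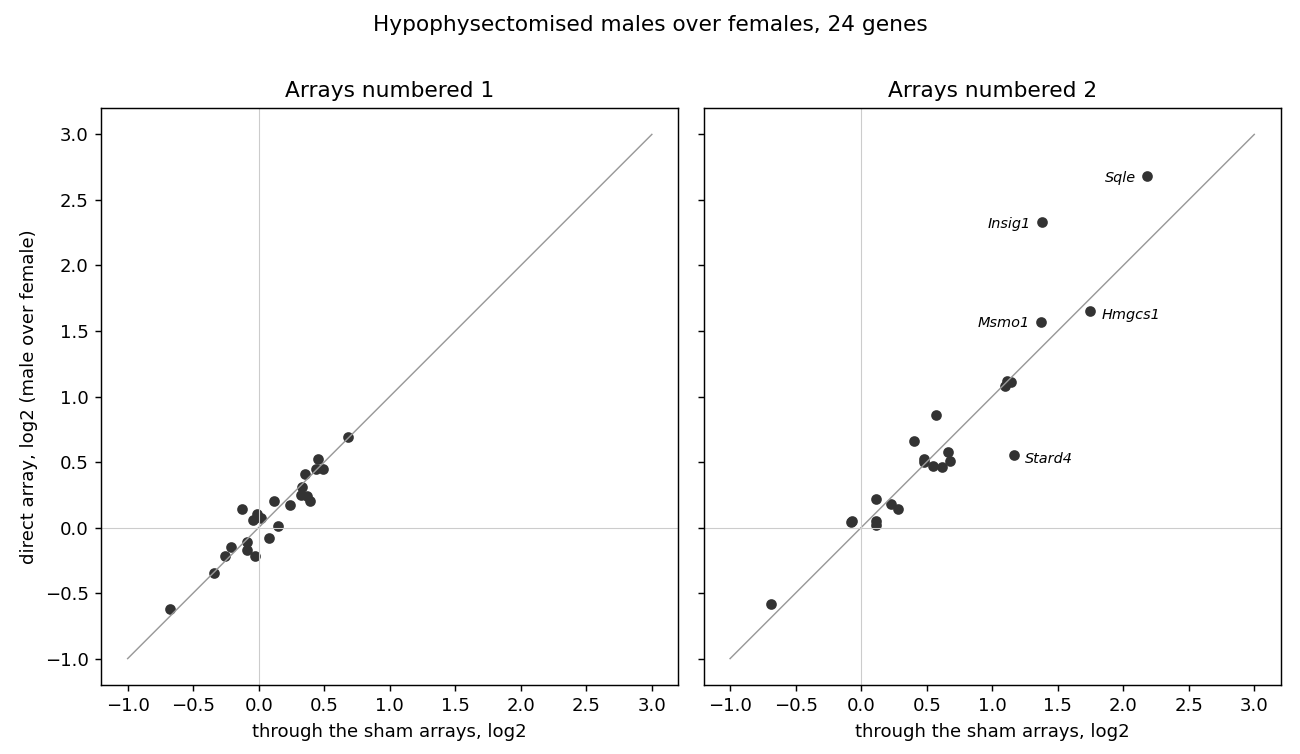
Log2 ratio of hypophysectomised males over females for the 24 genes, read directly (vertical axis) and through the sham arrays (horizontal axis), for the arrays numbered 1 and 2; the grey line marks equal values. Points of number 1 stay under 0.7 either way, while those of number 2 reach 2.68 for Sqle. The points of number 2 lie close to the line apart from Sqle, Insig1 and Stard4.

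After 30 min of GH a loop of the same kind did not close for number 2. Its direct array, M-GH30 over F-GH30, gave Sqle 0.71 and Insig1 0.90, whereas the route through the hypophysectomised groups gave 3.34 and 2.71. The median gap over the 24 genes was 0.41 there, against 0.09 for number 1 and 0.16 over all genes for number 2. Per the labels, the F-Hypox pool in F-GH30 over F-Hypox held 3 mice on array 2, and so was not the pool of 2 mice in M-Hypox over F-Hypox. In F-GH90 over F-Hypox and F-2GH over F-Hypox the F-Hypox pool held 2 mice on both arrays. On these arrays Sqle read 1.21 and 0.05 in F-GH90, and 2.62 and 0.85 in F-2GH. Whether pool size bears on the gaps between arrays was not tested.

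The gap between the 2 arrays of a comparison had a larger median over the 24 genes than over all genes in each of the 11 comparisons, from 0.17 against 0.16 in M-GH30 over M-Hypox to 0.44 against 0.12 in F-2GH over F-Hypox. Sqle had the widest gap of the 24 genes in 8 of the 11. Where the 2 arrays of a comparison carry different pools, as the pool sizes in the labels show for some, this gap holds differences between pools as well as array error.

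A single GH injection left the pathway without calls in most tests. At 30 min none of the 24 genes was called in M-GH30 over M-Hypox (2.5% of all genes; 2 members had an unadjusted p under 0.05) or in F-GH30 over F-Hypox (0.0191% of all genes; 0 members). The lowest adjusted p was 0.055, for Pmvk in males, which read -0.61 and -0.44. M-GH30 over F-GH30 also had no called member (0.504% of all genes), with 5 at an unadjusted p under 0.05. The effect of 30 min of GH was called different between the sexes for no member (0.00764% of all genes), and 0 had an unadjusted p under 0.05. Muscle markers had a median of 3.26 on array 1 and -0.02 on array 2 of M-GH30 over M-Hypox, and of 3.17 and -0.02 in M-GH30 over F-GH30.

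At 90 min in males none of the 24 genes was called (4.98% of all genes), yet 18 of them were below 0 on both arrays and 7 had an unadjusted p under 0.05. Their median was -0.36, against 0.002 over all genes. Insig1 read -1.30 and -1.07 (-1.18 ± 0.39, adjusted p = 0.11) and Hmgcs1 -1.09 and -0.66 (-0.88 ± 0.46, adjusted p = 0.35). Sqle read -1.98 and -0.40. Stard4 went the other way, at 0.47 and 1.1 (0.78 ± 0.24, adjusted p = 0.087). On array 1, where muscle markers had a median of 2.22, the median of the 24 genes was -0.46, and on array 2, where the markers had 0.03, it was -0.11, with 20 genes below 0 on each array. The part of the markers was not tested.

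At 90 min in females Lbr was called higher, at 0.25 and 0.61 (0.43 ± 0.09, adjusted p = 0.025), as were 2.34% of all genes (3.17% in either direction). The median of the 24 genes was 0.08 on array 1 and -0.21 on array 2, with 6 genes below 0 and 4 above 0 on both arrays. Insig1 read 0.70 and -0.73, and Sqle 1.21 and 0.05. The effect of 90 min of GH was called different between the sexes for no member (0.00764% of all genes), and 0 had an unadjusted p under 0.05.

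After 2 injections a few of the enzymes were called higher than in hypophysectomised mice without GH. In males 5 of 24 genes were higher (20.8%) and 1 was lower (4.17%), against 10.6% and 8.7% of all genes. In females 2 were higher (8.33%), against 4.4% of all genes. In either direction 25% of the members were called in males and 8.33% in females, against 19.3% and 8.43% of all genes, so the female share was near that of all genes. In males 16 members were above 0 and 5 below 0 on both arrays, and 10 had an unadjusted p under 0.05 (limma). In females these counts were 16, 2 and 13. The medians of the 24 genes were 0.31 and 0.34, against -0.008 and 0.001 over all genes. These comparisons use hypophysectomised mice as their base, as the comparisons with sham mice do from the other side, so the values are given side by side and not correlated.

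**Figure D3:**
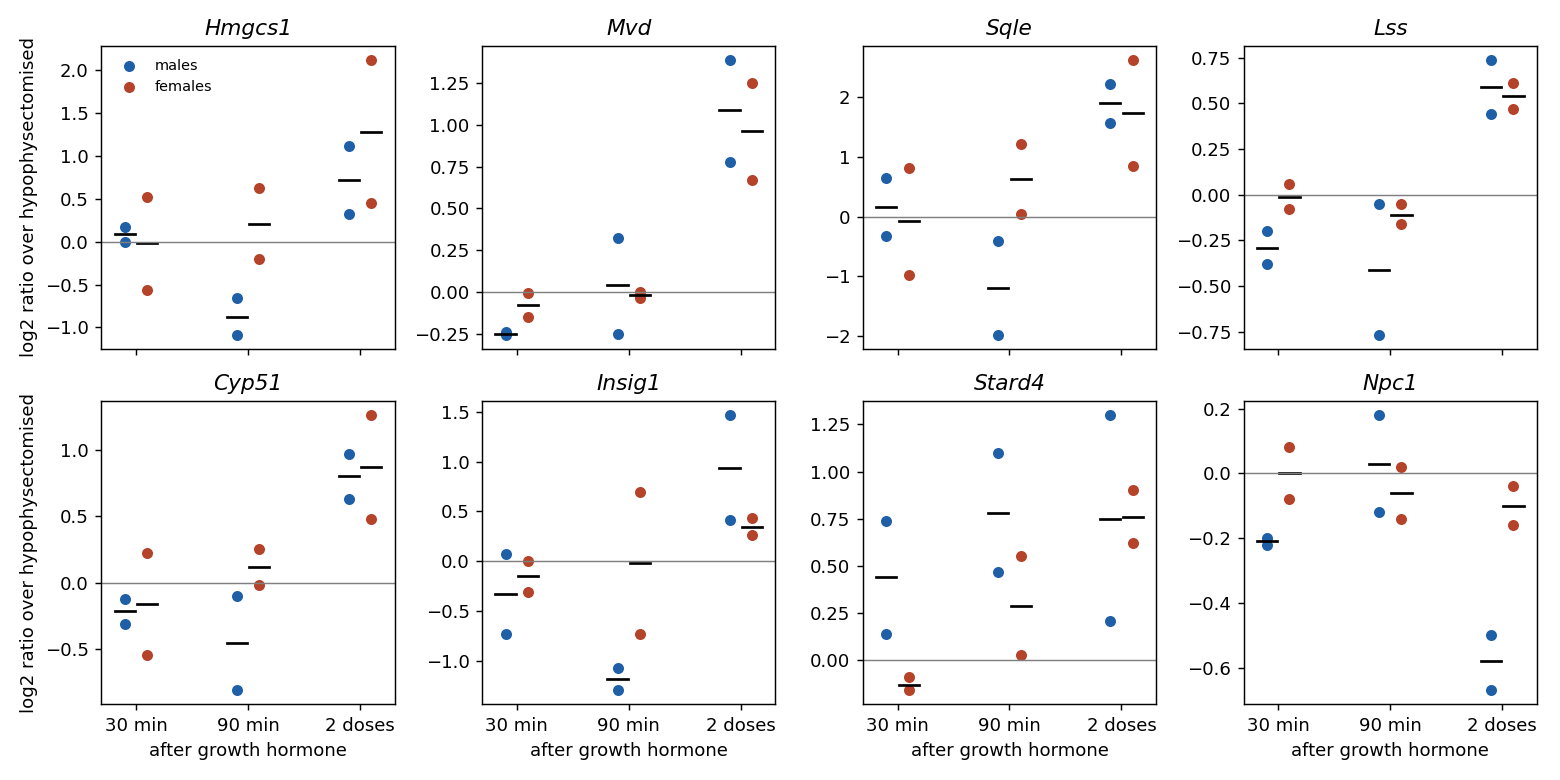
Log2 ratio over hypophysectomised mice of the same sex for 8 of the genes after 30 min, 90 min and 2 doses of growth hormone. Each point is 1 array and each black bar the mean of 2, males in blue and females in red, with a vertical scale of its own in each panel. After 2 doses Mvd, Lss, Cyp51 and Sqle lie above 0 on all 4 arrays, and Npc1 lies below 0 on all 4.

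Mvd rose in both sexes, reading 0.78 and 1.39 in males (1.09 ± 0.20, adjusted p = 0.0019) and 1.25 and 0.67 in females (0.96 ± 0.20, adjusted p = 0.013). Lss rose as well, at 0.44 and 0.74 in males (0.59 ± 0.14, adjusted p = 0.010) and 0.61 and 0.47 in females (0.54 ± 0.14, adjusted p = 0.034). Both genes were above 0 on all 4 arrays. Cyp51 was called in males, at 0.63 and 0.97 (0.80 ± 0.26, adjusted p = 0.046), and read 1.26 and 0.48 in females (0.87 ± 0.26, adjusted p = 0.057). The other 2 Cyp51 probes had 1.78 and 0.62 in males.

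Lbr was higher in males, at 0.46 and 0.43 (0.44 ± 0.09, adjusted p = 0.0041), and read 0.21 and 0.10 in females (adjusted p = 0.36). Stard4 was higher in males, at 1.30 and 0.21 (0.75 ± 0.24, adjusted p = 0.044), and read 0.90 and 0.62 in females (0.76 ± 0.24, adjusted p = 0.072). Its other 2 probes had 1.02 and 1.03 in males. Npc1 was lower in males, at -0.67 and -0.50 (-0.58 ± 0.09, adjusted p = 8.2e-04), and had -0.10 in females.

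Some genes with larger means had larger errors and missed the threshold. Sqle read 1.57 and 2.22 in males (1.89 ± 0.68, adjusted p = 0.073) and 2.62 and 0.85 in females (1.73 ± 0.68, adjusted p = 0.15). Hmgcs1 read 0.32 and 1.11 in males (0.72 ± 0.46) and 2.12 and 0.45 in females (1.28 ± 0.46, adjusted p = 0.11). Insig1 read 1.47 and 0.41 in males (0.94 ± 0.39, adjusted p = 0.12). Insig2 and Scap, which had fallen after hypophysectomy, had -0.30 and -0.24 in males and -0.06 and -0.19 in females, with no call.

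No member was called in the test of whether the effect of 2 injections differed between the sexes (1.97% of all genes), and 2 had an unadjusted p under 0.05. Without array 1 the count of called genes after 2 injections was 1 in males and 0 in females, and without array 2 it was 3 and 1. With median centring in place of loess, 1 was higher and 0 lower in males, and 0 were called in females. Muscle markers had medians of -0.06 and 2.97 on the male arrays and -3.39 and -3.10 on the female arrays, and pancreatic markers had 0.60 and 3.36 on the male arrays (4 of 5 called). Mvd, Lss and Cyp51 were above 0 on male array 1, at 0.78, 0.44 and 0.63, and on male array 2, at 1.39, 0.74 and 0.97. The part of the muscle and pancreatic markers in these results was not tested.

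The male values after 2 injections were set against those at 90 min, a contrast chosen after the data were seen. Insig1 (2.12 ± 0.55, adjusted p = 0.036), Mvd (1.05, adjusted p = 0.039) and Lss (1.00, adjusted p = 0.010) were higher after 2 injections, and Npc1 was lower (-0.62, adjusted p = 0.015), with 7.6% of all genes called (4.31% higher, 3.29% lower). Sqle had the largest difference and missed the threshold (3.09, adjusted p = 0.074). In females no member was called in that contrast (2.05% of all genes), and 7 had an unadjusted p under 0.05. Both comparisons share the M-Hypox group in males and the F-Hypox group in females. The labels give other pool sizes for M-Hypox at the 2 times, and 2 mice for F-Hypox at both. Muscle markers differed by a median of -3.22 in the female contrast, and their part was not tested.

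The sum of the hypophysectomy effect and the effect of 2 injections gives GH-treated over sham mice, read indirectly, if the hypophysectomised pools of both comparisons are alike. In males 6 of 24 genes were lower and 1 higher (21.9% of all genes called, 11.2% higher, 10.7% lower), and in females 4 were lower (20% of all genes called, 10.7% lower). Scap (-1.02 and -1.0), Insig2 (-1.63 and -0.77), Sc5d (-1.21 and -1.59) and Tm7sf2 (-1.25 and -1.24) were lower in males and females. In males Dhcr7 (-0.82) and Nsdhl (-1.12) were lower too, and Lbr (0.46, adjusted p = 0.021) was higher. Mvd had 0.33 in males and 0.04 in females, and Cyp51 -0.19 and -0.74, with no call. These indirect values were chosen after the data were seen. Per the labels, the M-Hypox pools held 3 mice against sham and 5 mice in M-2GH over M-Hypox. Muscle markers had indirect medians of -1.31 in males and -3.08 in females, and their part was not tested.

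**Figure D4:**
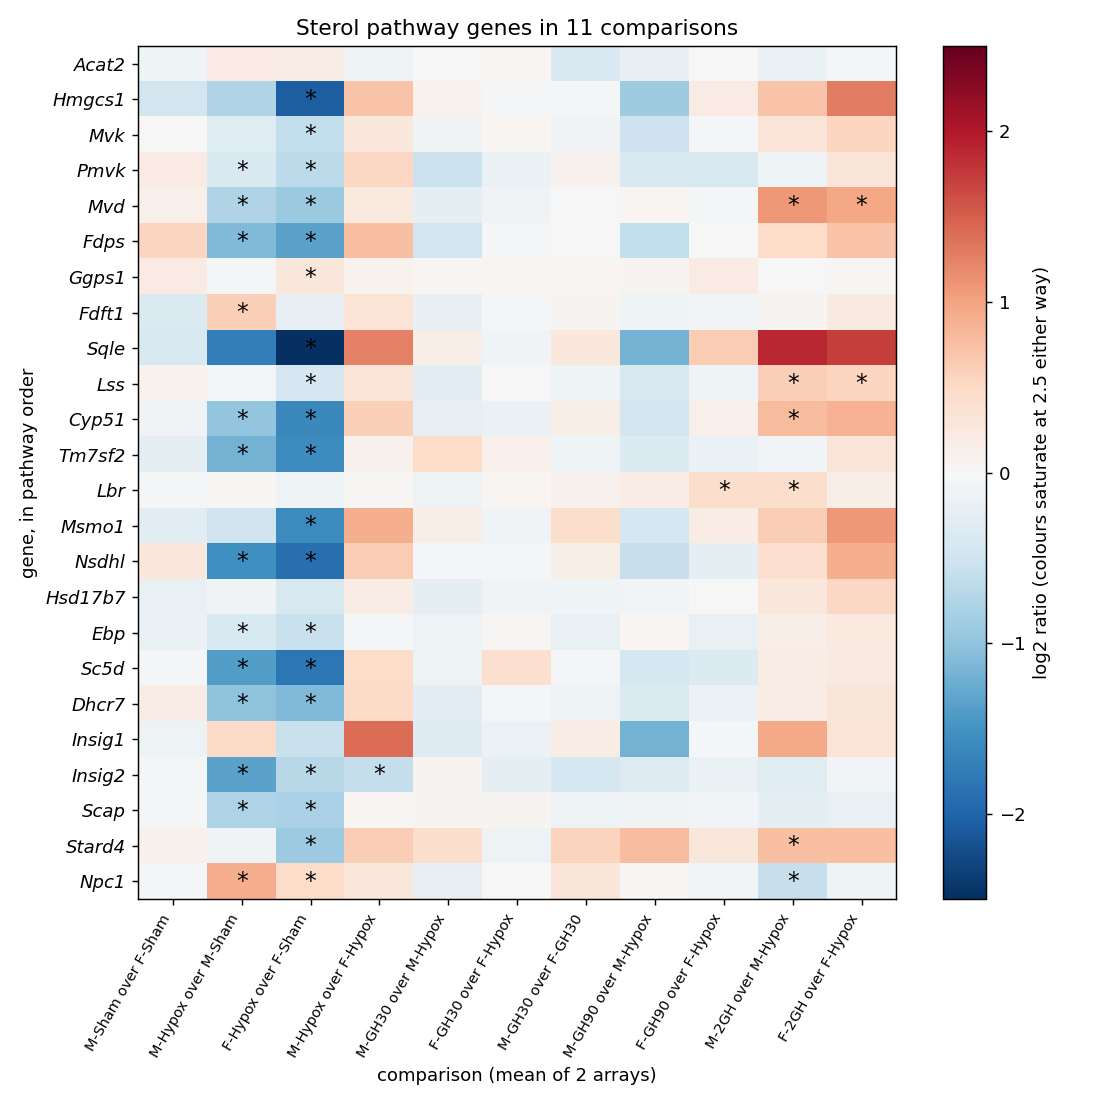
Mean log2 ratio of 2 arrays for the 24 genes (rows, in pathway order) in the 11 comparisons (columns), blue for lower and red for higher in the first named group; colours saturate at 2.5 either way. Asterisks mark genes called at adjusted p under 0.05 (limma): 13 and 19 in the male and female hypophysectomy columns, 6 and 2 in the columns of 2 injections, and 1 each in M-Hypox over F-Hypox and F-GH90 over F-Hypox.

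Genes around the pathway, in lists set down beside the 24, were read in the same comparisons. Their counts stand beside all-gene shares of 18.8% higher and 18.6% lower in M-Hypox over M-Sham, and 14.6% and 16.5% in F-Hypox over F-Sham. After 2 injections these shares were 10.6% and 8.7% in males, and 4.4% higher in females. Of 14 genes that process SREBPs or degrade sterol-regulated proteins, 3 were higher and 6 lower in M-Hypox, and 3 were higher and 2 lower in F-Hypox, where both shares are near those of all genes. Srebf1, which encodes the SREBP of fatty acid synthesis, was higher in both sexes (1.02 and 0.71). So was the endoplasmic reticulum protein Erlin2 (0.48 and 0.42). The ubiquitin ligase Syvn1 fell by 1.25 in M-Hypox, and in M-2GH it rose by 1.28, when 5 of the 14 were higher and 1 lower.

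Of 14 measured genes in the branches that lead from farnesyl diphosphate to dolichol, ubiquinone and prenylated proteins, 1 was higher and 5 lower in each sex after hypophysectomy. After 2 injections 5 were higher in males and 2 in females. Dhdds, a subunit of the dolichol-chain synthase, was at 0.87 in males (adjusted p = 2.1e-04) and 0.51 in females (adjusted p = 0.018). The prenyltransferase subunit Pggt1b was at 0.40 and 0.26.

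Among 7 genes of acetyl-CoA supply and ketone synthesis, Acss2, which makes acetyl-CoA from acetate, fell in both sexes (-0.79 in males and -1.22 in females). In the male list 2 genes were higher and 3 lower, and in the female list 1 and 1. A list of sterol export, transfer and esterification genes, with the LXR nuclear receptors and targets of theirs, had 15 measured genes. Of these 5 were higher in M-Hypox and 0 lower, and 3 were higher and 1 lower in F-Hypox. The canalicular sterol transporters Abcg5 (1.58 in males, 1.17 in females) and Abcg8 (1.21 and 1.1) rose in both sexes. Of 13 genes of fatty acid synthesis, 1 was higher and 5 lower in M-Hypox, and 8 were lower in F-Hypox. Thrsp, a lipogenic regulator, fell by 1.48 in males and by 2.08 in females, and malic enzyme Me1 by 1.18 and 0.96. After 2 injections no gene of this list was called in either sex.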

How the data were processed

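The authors deposited scanner files of 22 two-colour Agilent arrays. They hold, per the file headers, signal and background intensity of each spot, flags, and the scanner software's log10 ratio. A value table deposited by the authors holds log2 ratios and equalled those scanner ratios within rounding. For 16 of its 22 columns the match was the scanner file of the other replicate, so arrays are numbered here as the scanner files are. Labels and files name no aligner, and the series text gives M-Hypox as the base of F-2GH, whereas titles give F-Hypox. The Y-linked genes followed the titles.

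Intensities were background corrected (normexp, offset 50) and loess normalized within each array with limma 3.58.1 in R 4.3.3. Control spots (1639 per array) and outlier spots (97 to 159) were left out. Ratios were turned by the dyes in the labels. Of 33767 gene names, 26191 were tested, those that had, in 1 comparison or more, a channel well above background on each of its arrays. One limma model with 11 coefficients and a dye term left 10 residual degrees of freedom. Its p-values were adjusted within each comparison. Pools that recur on several arrays were treated as independent, and nothing says that pools share no animal, so p-values measure the spread between these arrays. The number of arrays limits the precision.

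The 27 members, the related lists and the marker lists were chosen with earlier results of these data known. All members are named: those called somewhere with their array values, the others by range or mean, with up to 4 called genes of each related list in a comparison. Alternatives were other background corrections, centring, filters, probe rules, models, blocks and left-out arrays. The test was checked on simulated arrays.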

Additional observations from a re-analysis of the deposited data

Results flagged for a closer look

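Insig2 fell by more in males than in females after hypophysectomy, with a difference between the sexes of -0.63 on the log2 scale. It was taken up because the test of that difference passed its threshold, as it did for 4.17% of members and 6.74% of all genes. In males, 4 genes differed between 2 injections and 90 min after 1 injection, by a contrast chosen after the data were seen: Mvd by 1.05, Lss by 1.00, Insig1 by 2.12 and Npc1 by -0.62. The 2 male comparisons behind these differences share the M-Hypox group, and the labels give its pools as 3 mice at 90 min and 5 mice after 2 injections. The muscle markers differed by a median of 0.25 and the pancreatic markers by 2.00 in the same contrast. The muscle value averages over unlike arrays, with medians of 2.22 and 0.03 in M-GH90 and of -0.06 and 2.97 in M-2GH. The part of both marker sets was not tested.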

How the results depend on the processing

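No called gene changed direction in any alternative: of 873 values of single genes 713 stayed on their side of the threshold, 155 lost the call and 5 gained one. Among values without a call, Hmgcs1 and Msmo1 in M-Hypox over M-Sham crossed 0, with ranges of -1.72 to 0.21 and -1.09 to 0.11. Counts of called members that moved by more than 1.5 times were these. Median centring without loess gave 10 in F-Hypox over F-Sham, 5 in M-Hypox over M-Sham, 1 in M-2GH over M-Hypox and in its indirect ratio to sham, and 0 in F-2GH over F-Hypox, its indirect ratio, M-Hypox over F-Hypox, the sex difference of the hypophysectomy effect and the male difference of 2GH and GH90. The model that treats the groups as a loop gave 5 in F-2GH over F-Hypox, 5 in M-Hypox over F-Hypox, 6 in the sex difference of hypophysectomy, 7 and 2 in the male and female differences of 2GH and GH90, and 11 and 8 in the male and female indirect ratios. It gave 1 in M-Sham over F-Sham, M-GH30 over M-Hypox, M-GH30 over F-GH30 and the sex difference of 2GH. Fits of each comparison's own arrays gave 2 in M-2GH, 4 in its indirect ratio, 1 in M-GH90, and 0 in F-GH90, M-Hypox over F-Hypox, the sex difference of hypophysectomy and the male difference of 2GH and GH90. Without a dye term the counts were 1 in F-2GH, 2 in the male difference of 2GH and GH90, and 0 in M-Hypox over F-Hypox and the sex difference. Without background subtraction they were 2 in the sex difference of hypophysectomy, 2 in the female difference of 2GH and GH90, and 1 in the sex difference of 2GH. The scanner software's ratios gave 1 in F-2GH, 0 in F-GH90, and 2 and 1 in the male and female differences of 2GH and GH90. The mean of all probes gave 1 in M-GH90 and 1 in M-Sham over F-Sham, no filter on dim probes gave 0 in the sex difference of hypophysectomy, and leaving out the sham arrays gave 0 in F-GH90. The cause was not tested.

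Leaving out array 1 or array 2 of each comparison gave counts of 9 to 15 in F-Hypox, 7 to 13 in M-Hypox, 1 to 3 in M-2GH, 0 to 1 in F-2GH, F-GH90, M-GH90 and the sex difference of hypophysectomy, 0 in M-Hypox over F-Hypox, 0 to 2 in the male difference of 2GH and GH90, 3 to 5 in the male indirect ratio and 2 in the female one. The lone array is then assumed to vary like the other comparisons. Cyp51 and Stard4 in M-2GH lost their call in 8 of 13 alternatives each, and Lss in F-Hypox in 7 of 12.

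Replicate numbers were not taken to pair the arrays of all comparisons: over 55 pairs of comparisons the correlation of deviations ran from -0.36 to 0.87, and 20 were above 0.1. Some comparisons do go together by number, as in the hypophysectomy loop, where the median gap of the 24 genes was 0.07 and 0.11 within a number and 0.40 across numbers. With the number as a replicate block beside the dye term the counts were 19 in F-Hypox, 13 in M-Hypox, 5 in M-2GH and 2 in F-2GH, and 1 of 71 single-gene values lost its call. Slide as a random block (within-slide correlation -0.052) changed no single-gene call.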

Other observations

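Abca1, which exports cholesterol from cells, rose in F-Hypox over F-Sham (0.69, adjusted p = 1.2e-05, limma) and in M-2GH over M-Hypox (0.48, adjusted p = 2.9e-04). Lpcat3, a phospholipid-remodelling acyltransferase, fell in M-2GH over M-Hypox (-1.02, adjusted p = 1.7e-04), and Mylip, a ubiquitin ligase for lipoprotein receptors, fell in both sexes after 2 injections (-0.52 in males and -0.45 in females). Pnpla3, a lipid-droplet protein, fell by 1.69 in F-Hypox over F-Sham. In Hypox over sham, Elovl6, a fatty acid elongase, rose in males (0.69, adjusted p = 0.016). The carbohydrate-responsive transcription factor Mlxipl fell in both sexes (-0.79 in males and -0.63 in females).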
